A study of Mus musculus with 91 samples.

Results

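MicroRNAs (miRNAs) were compared between Dnmt-null and control extraembryonic ectoderm (Exe) at embryonic day 6.5 (E6.5), the tissue of the mouse conceptus that forms the placental side of the egg cylinder. The 4 Dnmt-null and 4 control Exe libraries are 8 of the 91 libraries of a study that profiled small RNAs from very small inputs in mouse embryos lacking DNA methyltransferases. They were chosen by stage, tissue and genotype alone, and every mature miRNA of the count table was carried, with most room given to those outside the imprinted Dlk1-Dio3 locus on chromosome 12. All embryos came from B6D2F1 females mated with C57BL/6J males carrying an Oct4-EGFP transgene, and all zygotes received the cytosine base editor hA3A-eBE3-Y130F. Dnmt-null zygotes also received guide RNAs against Dnmt1, Dnmt3a and Dnmt3b, whereas control zygotes received the editor with no guide. Dnmt1-KO embryos, edited at Dnmt1 only, and Dnmt3a/3b-DKO embryos, edited at Dnmt3a and Dnmt3b, gave 4 Exe libraries each at the same stage and are set beside the Dnmt-null values. The edited embryos were founders grown in ICR foster mothers, and Exe was separated from epiblast (Epi) with a needle. Small RNA libraries do not measure the Dnmt mRNAs, so loss of the targeted transcripts was not checked in these libraries.

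DNMT1 copies DNA methylation to the new strand at replication, and DNMT3A and DNMT3B place it on unmethylated DNA. A miRNA is cut from a hairpin into a 5p and a 3p arm, and the arm loaded into an Argonaute protein finds its target mRNAs mainly through its seed, the short stretch from base 2 to base 8. Exe and the trophoblast it gives rise to are known for the miR-290-295 cluster, shared with pluripotent cells, and for a large miRNA cluster in an intron of Sfmbt2. Igf2 and H19 form a second imprinted domain in which parental methylation decides which allele is used, and a cluster of fast-evolving miRNAs on the X chromosome is best known from the male germ line.

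The results outside Dlk1-Dio3 turn on a few mature sequences, taken from RefSeq on GRCm38, in which capitals mark the seed. The first set shows called members of the X-linked cluster, among which miR-465a-5p and miR-465c-5p share a seed while the others each have their own, and the 3p arm miR-465a-3p, which was not called while its 5p partner was.
miR-741-3p: uGAGAGAUgccauucuauguaga
miR-743b-3p: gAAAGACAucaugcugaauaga
miR-470-5p: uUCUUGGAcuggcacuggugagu
miR-871-3p: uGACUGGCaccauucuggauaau
miR-878-5p: uAUCUAGUuggaugucaagaca
miR-465a-5p: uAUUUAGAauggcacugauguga
miR-465c-5p: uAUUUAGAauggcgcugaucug
miR-465a-3p: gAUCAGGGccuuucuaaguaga

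The second set shows the miRNAs that carried the lower values: both arms of miR-483, the pair miR-141-3p and miR-200a-3p with one seed, the pair miR-25-3p and miR-92a-3p with another, and the abundant arms miR-295-3p and miR-291a-5p of the miR-290-295 cluster. The single let-7 member called higher, let-7g-5p, and the leading miRNA of Dlk1-Dio3, miR-541-5p, close the set.
miR-483-5p: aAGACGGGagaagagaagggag
miR-483-3p: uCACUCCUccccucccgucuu
miR-141-3p: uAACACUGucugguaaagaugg
miR-200a-3p: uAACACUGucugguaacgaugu
miR-25-3p: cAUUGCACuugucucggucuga
miR-92a-3p: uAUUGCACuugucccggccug
miR-295-3p: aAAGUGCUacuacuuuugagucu
miR-291a-5p: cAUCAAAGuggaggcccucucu
let-7g-5p: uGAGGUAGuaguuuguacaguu
miR-541-5p: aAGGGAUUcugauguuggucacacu

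The 4 control Exe libraries held 65751 to 202093 counts and the 4 Dnmt-null libraries 74927 to 132931, so that 3 counts, the upper limit that a count of 0 allows, stood for 14.8 to 45.6 CPM (counts scaled to a common library size) in controls and 22.6 to 40.04 CPM in Dnmt-null Exe. Reads were amplified by PCR, so such limits cover counting error only. The labels do not say whether the replicates came from separate embryos, and the p-values then measure the spread between these libraries, which may be technical. The tissue label was checked on miRNAs: the cluster of miR-302 and miR-367, which marks epiblast, took 1.99% to 3.43% of counts in control Exe against 14.9% to 23.3% in control Epi, and 8 of its 9 tested members were lower in Exe after adjustment (22.8% of all 658 miRNAs tested in that comparison passed in either direction). The Sfmbt2 cluster families, which mark trophoblast, took 13.3% to 25.1% of counts in control Exe and 17.1% to 24.9% in Dnmt-null Exe, against 2.12% to 10.1% in control Epi. The ranges of the epiblast marker share overlapped between control and Dnmt-null Exe, where it was 1.40% to 2.89%. Blood and endothelial miRNAs took 0.106% to 0.214% of counts in control and 0.107% to 0.268% in Dnmt-null Exe, but up to 1.78% in Dnmt1-KO replicate 4.

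In all, 376 miRNAs had enough counts to be tested, 71 of them in Dlk1-Dio3 and 305 outside it. A miRNA was called where its log2 fold change exceeded 0.5 in either direction at an unadjusted p below 0.05 in edgeR's quasi-likelihood test, the thresholds the study used. Dnmt-null Exe differed from control in 49 of the 376 (13% of those tested), with 19 higher (5.05%) and 30 lower (7.98%). The direction of change split by locus: in Dlk1-Dio3 11 were higher and 0 lower, whereas outside it 8 were higher (2.62% of 305) and 30 lower (9.84%). The median log2 fold change was 0.52 in the locus, −0.21 outside it and −0.08 over all tested miRNAs. The 49 include 2 pairs of entries with identical counts, miR-136-3p with miR-3071-5p in the locus and miR-290a-5p with miR-290b-3p outside it. After Benjamini-Hochberg adjustment 2 passed (0.532%), miR-541-5p in the locus and miR-483-5p outside it.

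How many miRNAs fell outside the locus depended on the scaling. With trimmed-mean (TMM) factors computed without the Dlk1-Dio3 miRNAs the calls split into 33 higher and 14 lower and the median of all miRNAs was 0.18, and with library totals alone they split into 31 and 18 with a median of 0.11. The median of all miRNAs thus shifted by 0.26 and 0.19, and the median outside the locus went from −0.21 to 0.08 and 0.0057. Of 376 miRNAs, 20 (5.32%) had 4 Dnmt-null libraries above all 4 controls and 18 (4.79%) had 4 below all controls. Among called miRNAs outside the locus this held for 6 of the 8 higher and 11 of the 30 lower.

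**Figure D1:**
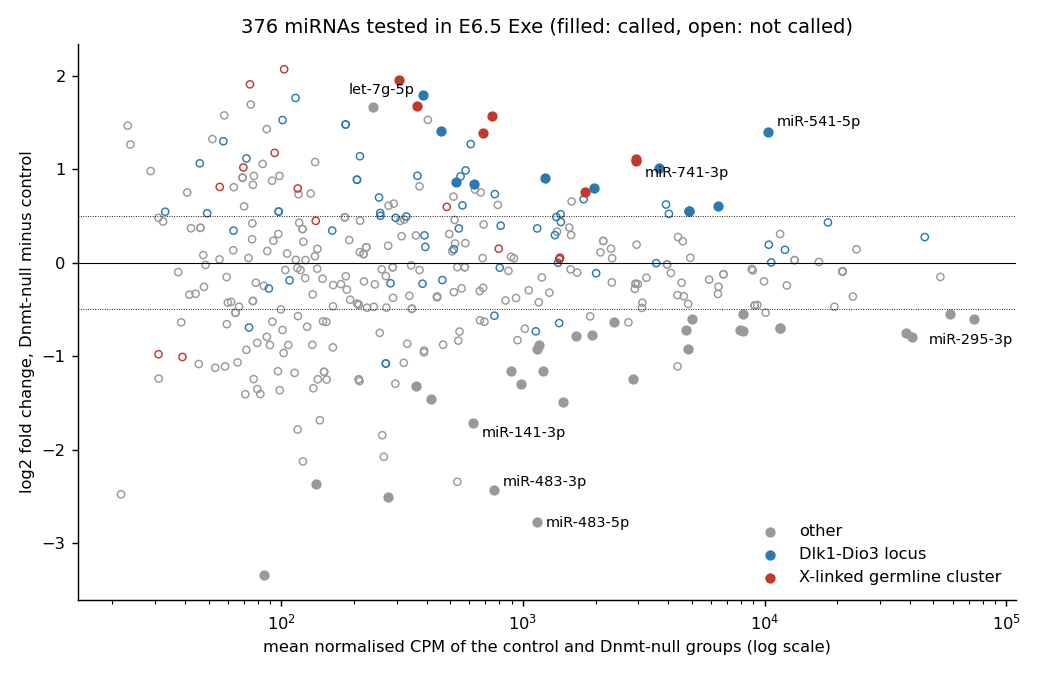
Each point is 1 of the 376 miRNAs tested in E6.5 Exe, with its mean normalised CPM over the control and Dnmt-null groups (log axis) against the log2 fold change of Dnmt-null over control (filled, called; open, not called). The 11 called miRNAs of Dlk1-Dio3 lie above zero, and of the 38 called outside it 8 lie above and 30 below, with miR-483-5p at −2.77.

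The 8 miRNAs called higher outside Dlk1-Dio3 were 7 members of one X-linked cluster and let-7g-5p. The list for this cluster names 38 mature miRNAs of the table, of which 34 lie on the minus strand of chromosome X between positions 66776757 and 66839125 (GRCm38) and the other 4, the arms of miR-201 and miR-547, lie further along the chromosome. Of the 38, 31 had a count in an E6.5 Exe library and 21, all in the interval, were tested. Of these 21, 19 had a positive log2 fold change, 7 were called higher and 0 lower, with a median of 0.81. Over all 376 tested miRNAs 168 were positive and 19 (5.05%) were called higher, with a median of −0.08. The other 29 tested miRNAs of the X chromosome had a median of −0.08, with 0 called higher and 2 lower (miR-351-5p and miR-421-3p). The summed cluster took 1.60%, 1.36%, 0.974% and 0.543% of counts in control libraries 1 to 4 and 2.50%, 2.20%, 1.68% and 2.11% in Dnmt-null libraries 1 to 4. Every Dnmt-null library lay above every control, although Dnmt-null replicate 3 and control replicate 1 were close. The remaining 17 members had too few counts to be tested.

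The most abundant cluster members moved from about the same control level to about the same Dnmt-null level. For miR-741-3p the normalised values were 2115, 2486, 2034 and 823 CPM in controls 1 to 4 and 4330.1, 4029, 3453 and 4279 CPM in Dnmt-null libraries 1 to 4. The groups did not overlap, and control replicate 4 was lowest. The log2 fold change was 1.11 (SE 0.29, adjusted p = 0.0744 by edgeR). In 26 alternative settings the adjusted p passed in 8 and missed in 18. For miR-470-5p the controls had 2616, 2829.7, 1253 and 808 CPM and the Dnmt-null libraries 4759, 3421, 3624 and 4096 CPM. These groups did not overlap either, with controls 3 and 4 below controls 1 and 2, and the log2 fold change was 1.09 (SE 0.37, adjusted p = 0.137 by edgeR).

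The rarer miR-743b-3p, miR-465a-5p, miR-878-5p and miR-465c-5p showed larger fitted changes with wider errors, but miR-871-3p did not. miR-743b-3p stood at 48.4, 557, 651 and 224 CPM in controls and at 1234, 1121, 843 and 1308 CPM in Dnmt-null Exe, a log2 fold change with SE of 1.57 ± 0.47 (adjusted p = 0.0859 by edgeR). Its lowest Dnmt-null library was above its highest control. miR-465a-5p had 517, 496, 379.6 and 127 CPM in controls and 1249, 825, 1028 and 842 CPM in Dnmt-null Exe, without overlap, with a log2 fold change with SE of 1.38 ± 0.44 (adjusted p = 0.115 by edgeR). miR-878-5p had no count in controls 1 and 4, 229 and 260.3 CPM in controls 2 and 3, and 709, 419, 435 and 406 CPM in Dnmt-null Exe. Its Dnmt-null libraries lay above every control, its call was lost without Dnmt-null replicate 1 (1.75), and the fitted log2 fold change of 1.95 (SE 0.84, adjusted p = 0.275 by edgeR) rests in part on the 2 controls at 0. For miR-465c-5p and miR-871-3p the groups overlapped. miR-465c-5p reached 953, 615 and 608 CPM in Dnmt-null replicates 1, 2 and 4 but 65.9 CPM in replicate 3, below 3 of the 4 controls (16.1 to 287 CPM), with a log2 fold change of 1.67 (SE 0.63) that was not called without Dnmt-null replicate 1 (1.32). miR-871-3p had 778 to 1846 CPM in controls and 1542 to 2585 CPM in Dnmt-null Exe, with a log2 fold change of 0.76 (SE 0.32) that was not called without control replicate 3 (0.72) or 4 (0.57).

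**Figure D2:**
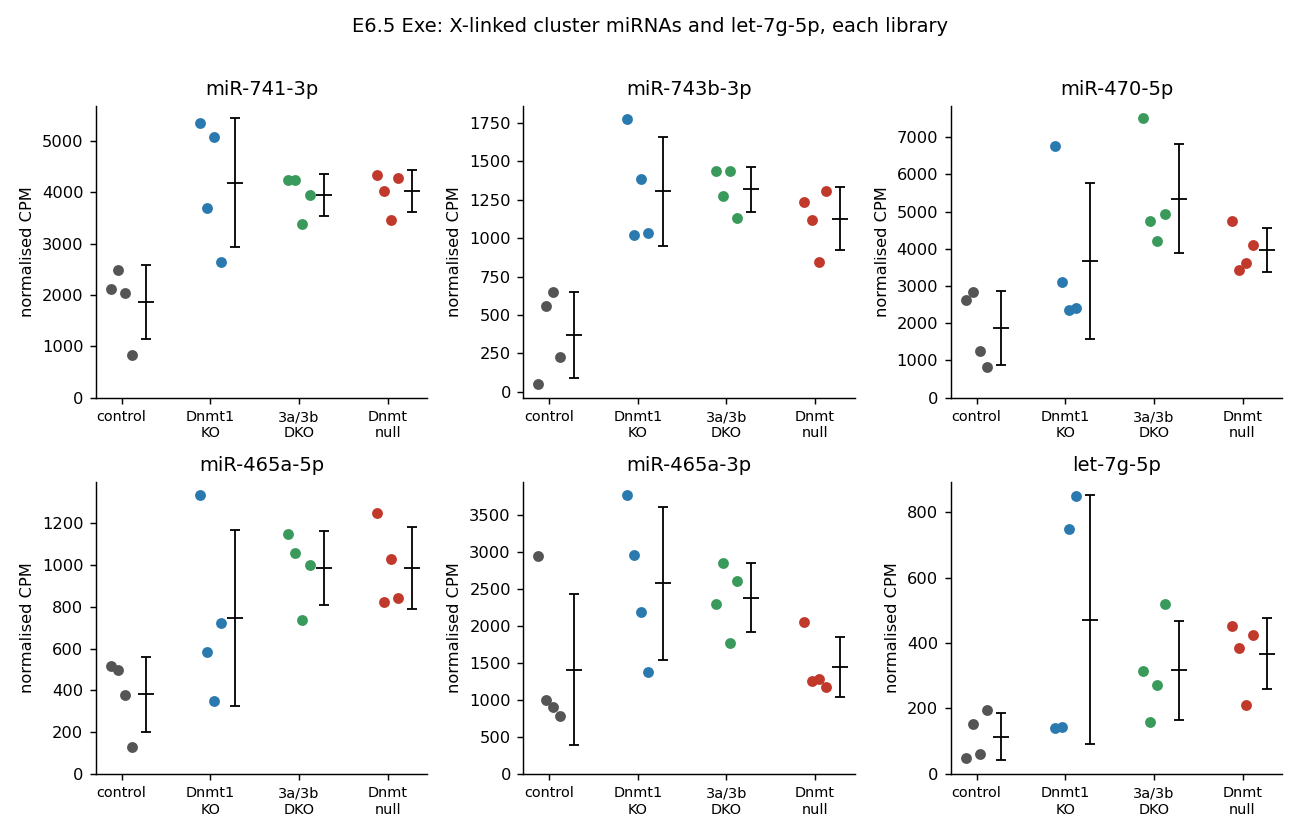
Normalised CPM of miRNAs called higher outside Dlk1-Dio3, and of miR-465a-3p, which was not called. Points are the E6.5 Exe libraries, shown with the mean and SD of each genotype (4 libraries each). For miR-741-3p the 4 Dnmt-null libraries sit between 3453 and 4330.1 CPM, all above the controls at 823 to 2486 CPM, and the Dnmt1-KO and Dnmt3a/3b-DKO libraries sit above the controls too.

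Not every member of the cluster was called. miR-465a-3p, with the same counts as miR-465c-3p in every library, had 2939, 999, 906 and 786 CPM in controls and 2047, 1258.5, 1278 and 1176 CPM in Dnmt-null Exe. Control replicate 1 was above all 4 Dnmt-null libraries and the other controls below them, and the log2 fold change was 0.05 (SE 0.39, adjusted p = 0.985 by edgeR). miR-743a-3p had a log2 fold change of 0.79 and miR-880-3p of 0.15, whereas miR-881-5p and miR-743a-5p, both sparse, had −1.01 and −0.98, and these 4 did not pass the test.

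The same cluster was higher in the single and double knockouts, which share the control libraries with the Dnmt-null comparison. In Dnmt1-KO Exe 11 of the 21 tested members were called higher and 0 lower (median 0.89), counting the 3 near-identical miR-465 3p rows singly, beside 33 of 376 called over all miRNAs (8.78%; 4.26% higher and 4.52% lower). In Dnmt3a/3b-DKO Exe 9 were called higher and 0 lower (median 0.96), beside 34 of 376 (9.04%; 3.46% higher and 5.59% lower). For miR-741-3p the log2 fold change was 1.17 where Dnmt1 alone was edited, 1.08 with Dnmt3a and Dnmt3b edited and 1.11 in Dnmt-null Exe, and for miR-743b-3p these were 1.78, 1.80 and 1.57. The cluster took 1.70% to 3.64% of counts in Dnmt1-KO libraries and 1.86% to 3.17% in those of Dnmt3a/3b-DKO. Set directly against Dnmt1-KO, Dnmt-null Exe had 0 cluster members higher and 3 lower (14 of 376 called in all, 3.72%), and against Dnmt3a/3b-DKO 0 in either direction (6 of 376, 1.6%). The 3 were miR-465a-3p, with a log2 fold change of −0.84 against Dnmt1-KO, and miR-465b-3p and miR-465c-3p, whose counts were the same or nearly so, and they amount to 1 measurement.

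**Figure D3:**
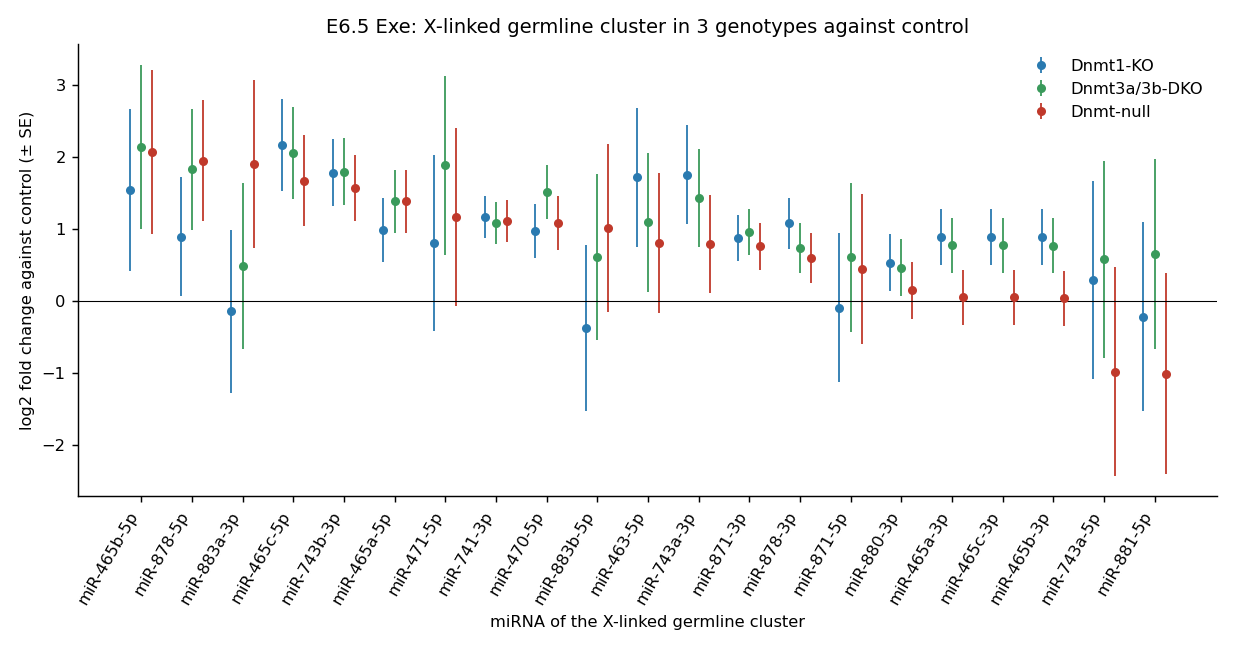
Log2 fold change against control (± SE) of the tested members of the X-linked cluster in each of the 3 edited genotypes (4 libraries each, the same 4 controls throughout). Most values are positive in all 3 genotypes, with 11, 9 and 7 members called higher and 0 lower, while miR-465a-3p stands at 0.05 in Dnmt-null Exe.

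The rise of the cluster was tested against other tissues in one fit of 62 embryo libraries. In that fit miR-741-3p had Dnmt-null log2 fold changes of 1.23 (E6.5 Exe), 1.69 (E6.5 Epi) and 1.60 (E7.5 Exe), and the differences between E6.5 Exe and these tissues did not pass (adjusted p = 0.62 and 0.887 by edgeR). In control libraries miR-741-3p was higher in Exe than in Epi, with a log2 difference of 1.17 (SE 0.31, adjusted p = 0.00412 by edgeR). For miR-470-5p the Dnmt-null values were 1.22, 2.83 and 1.91, with a difference of −1.62 (SE 0.47) between E6.5 Exe and Epi that missed the threshold (adjusted p = 0.0729 by edgeR). miR-465a-3p did differ: its Dnmt-null log2 fold change was 0.19 for Exe and 2.54 for Epi at E6.5, a difference of −2.35 (SE 0.54, adjusted p = 0.0109 by edgeR, with 0.912% of the 658 miRNAs passing). That call was lost without E6.5 Epi Dnmt-null replicate 1, without E6.5 Epi control replicate 4 or without E6.5 Exe control replicate 1, with adjusted p up to 0.117 by edgeR.

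let-7g-5p, a member of the let-7 family known to restrain growth and rise with differentiation, was the only called higher miRNA outside both Dlk1-Dio3 and the X-linked cluster. Its hairpin lies in an intron of Wdr82 on chromosome 9 (106178840 to 106178927, plus strand, GRCm38). Controls had 48.4, 153, 59.7 and 194.5 CPM and Dnmt-null libraries 451, 383, 211 and 426 CPM. The lowest Dnmt-null library, replicate 3, was just above the highest control, replicate 4, and the log2 fold change was 1.67 (SE 0.68, adjusted p = 0.215 by edgeR). Without control replicate 3 it was 1.45 and not called. The other genotypes had log2 fold changes of 2.01 (Dnmt1-KO) and 1.46 (Dnmt3a/3b-DKO), both called. The other 8 tested members of the let-7 and miR-98 family were not called, and the family's median was 0.06. let-7b-5p, one of the miRNAs the study names, had 501, 30.5, 70.5 and 127 CPM in controls and 7.39, 86.8, 92.2 and 20.3 CPM in Dnmt-null Exe, with overlapping groups and a log2 fold change with SE of −1.78 ± 1.27 (adjusted p = 0.64 by edgeR).

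Among miRNAs that fell, miR-483 had the lowest adjusted p-values. Its hairpin lies in an intron of Igf2, the fetal growth factor gene expressed from the paternal allele, on chromosome 7 (142654924 to 142654996, minus strand, GRCm38). For miR-483-5p the raw counts were 217, 149, 223 and 288 in controls and 62, 29, 26 and 15 in Dnmt-null libraries. In normalised units this was 3504, 1136.5, 1209 and 2155 CPM against 458, 209.7, 343 and 152.1 CPM. Every Dnmt-null library was below every control, the log2 fold change was −2.77 (SE 0.63, adjusted p = 0.0473 by edgeR, a fitted 6.84-fold fall), and this was the one fall outside Dlk1-Dio3 to pass after adjustment. The unadjusted call held in each of 26 alternative settings, but the adjusted p passed in 12 of them and missed in 14, where it reached 0.158 by edgeR. The 3p arm, miR-483-3p, had 1647, 816, 466 and 2192 CPM in controls and 222, 101.3, 527 and 112 CPM in Dnmt-null Exe. Here Dnmt-null replicate 3 lay above control replicate 3, and the log2 fold change was −2.43 (SE 0.58, adjusted p = 0.0552 by edgeR). miR-675-3p, cut from the H19 RNA that is made from the maternal allele of the same domain, had a log2 fold change of −0.34 (adjusted p = 0.967 by edgeR).

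Both arms of miR-483 were lower in Dnmt1-KO Exe as well, at −1.97 for miR-483-5p and −2.05 for miR-483-3p. In Dnmt3a/3b-DKO Exe miR-483-5p was called at −1.32 and miR-483-3p stood at −1.04 without passing. Dnmt-null Exe was lower than Dnmt3a/3b-DKO Exe for both arms, by log2 differences of −1.46 and −1.39, which are 2 of the 4 miRNAs called lower in that comparison (1.06% of 376). In the fit of 62 libraries the Dnmt-null log2 fold change of miR-483-5p was −2.64 at E6.5 and −4.04 at E7.5 (SE 0.89, adjusted p = 0.00158 by edgeR for the latter) in Exe, and 0.23 in Epi. The difference from Epi was −2.86 (SE 1.19, adjusted p = 0.197 by edgeR) and that from E7.5 Exe was 1.40 (SE 1.14, adjusted p = 0.746 by edgeR), so neither passed. In Epi, where control libraries had 41.3 to 367.2 CPM, 1 Dnmt-null library held 949 CPM and another had no count. The 3p arm had 37, 77, 23 and 19 counts in Epi controls and 0, 1, 0 and 3 in Epi Dnmt-null libraries, without overlap. Its Dnmt-null log2 fold changes were −3.78 for Epi (SE 1.15, adjusted p = 0.021 by edgeR), −2.29 for Exe at E6.5 and −4.19 for Exe at E7.5.

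**Figure D4:**
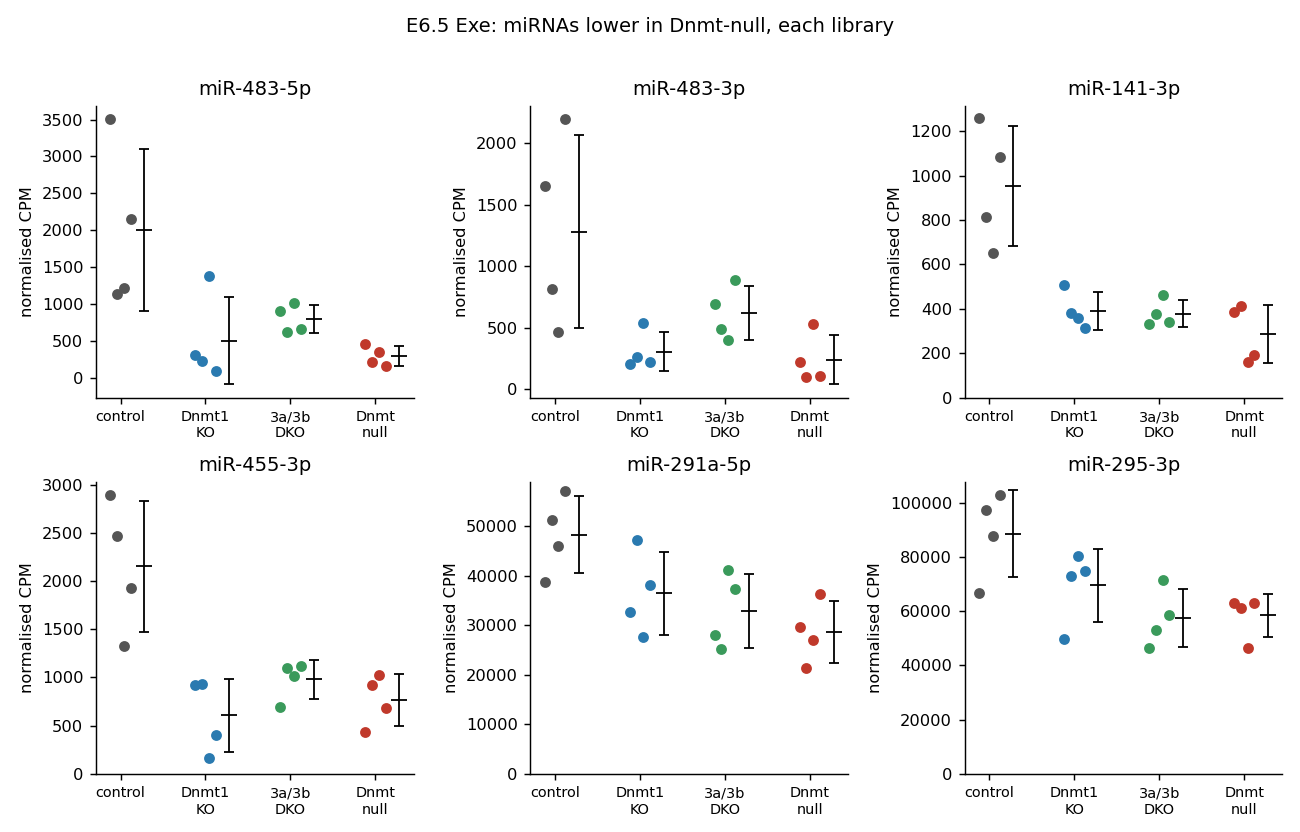
Normalised CPM of miRNAs called lower outside Dlk1-Dio3 in each E6.5 Exe library (points) with the mean and SD of each genotype (4 libraries each). For miR-483-5p the Dnmt-null libraries sit between 152.1 and 458 CPM, the controls between 1136.5 and 3504 CPM, the Dnmt3a/3b-DKO libraries between these at 620.6 to 1016 CPM, and the Dnmt1-KO libraries spread from 96.1 to 1383 CPM.

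miR-141-3p, an arm of the epithelial miR-200 family that holds Zeb1 and Zeb2 down, had 1259, 816, 651 and 1085 CPM in controls and 384, 412, 158 and 193 CPM in Dnmt-null Exe. The groups did not overlap, and the log2 fold change was −1.71 (SE 0.43, adjusted p = 0.061 by edgeR), beside −1.28 for Dnmt1-KO and −1.33 for Dnmt3a/3b-DKO Exe, both called. miR-200a-3p, which shares its seed, was called at −0.88, miR-200c-3p at −0.60 and the sparse miR-141-5p at −3.34. The family did not move as a whole: 4 of its 8 tested members were called lower and 0 higher (9.84% lower over all miRNAs outside Dlk1-Dio3), miR-200b-3p and miR-429-3p had log2 fold changes of 0.27 and 0.28, and the median of −0.18 became 0.10 with TMM factors computed without Dlk1-Dio3. Without Dnmt-null replicate 1, 3 or 4, or without control replicate 1, only 1 member was called.

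Other miRNAs whose Dnmt-null libraries all lay below the controls came from unrelated loci. miR-455-3p, in an intron of the collagen gene Col27a1, had 2890.1, 2471, 1323 and 1930.2 CPM in controls and 428.6, 926, 1028 and 679 CPM in Dnmt-null Exe, a log2 fold change with SE of −1.49 ± 0.44 (adjusted p = 0.0859 by edgeR). miR-22-3p, from a hairpin within Mir22hg, had 6313, 7452, 5819 and 5746 CPM in controls and 2232, 4267, 3110.1 and 3731 CPM in Dnmt-null Exe, a log2 fold change with SE of −0.92 ± 0.26 (adjusted p = 0.0796 by edgeR). In both cases the lowest control was above the highest Dnmt-null library. miR-421-3p, in an intron of the noncoding Ftx gene of the X-inactivation centre, had 2793, 1121, 917 and 793 CPM in controls and 554, 687, 329 and 689 CPM in Dnmt-null Exe, a log2 fold change of −1.30 (adjusted p = 0.14 by edgeR). It was no longer called without control replicate 1 (−0.71) or without Dnmt-null replicate 3 (−1.01). miR-378a-3p, in an intron of Ppargc1b, had a log2 fold change of −1.15, miR-466h-5p of the Sfmbt2 intron one of −1.16 and miR-15b-5p, in an intron of Smc4, one of −0.93.

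The miR-290-295 cluster held the most abundant miRNA outside Dlk1-Dio3, miR-295-3p, whose seed is shared with the miR-302 family and with the arms that promote the short cell cycle of pluripotent cells. It had 66553, 97437, 87634 and 102891 CPM in controls and 62935, 61129, 46309 and 63164 CPM in Dnmt-null Exe. The highest Dnmt-null library was only just below control replicate 1, and the log2 fold change was −0.60 (SE 0.22, adjusted p = 0.157 by edgeR). miR-291a-5p had 38718, 51171, 46022 and 57046 CPM in controls and 29609, 21299.8, 27055 and 36347 CPM in Dnmt-null Exe, a log2 fold change with SE of −0.76 ± 0.23 (adjusted p = 0.097 by edgeR). Of the 17 tested arms 6 were called lower and 0 higher (9.84% lower over all miRNAs outside Dlk1-Dio3), with a median of −0.45, beside 1 lower for Dnmt1-KO and 6 for Dnmt3a/3b-DKO Exe. With entries of identical counts taken once, 4 of 13 were called lower. The arms did not move together, since miR-294-3p (−0.11), miR-291a-3p (0.12), miR-292a-5p (0.03) and miR-293-5p (0.66) were not called. The cluster took 18.9% to 27.9% of counts in controls and 14.98% to 23.5% in Dnmt-null libraries, ranges that overlap. Lower calls dropped to 1 with TMM factors computed without Dlk1-Dio3, with 1 arm then called higher, and the median turned to 0.04 without control replicate 2 and to 0.08 without Dnmt-null replicate 3.

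Members of the miR-17~92 cluster and its paralogues, which act on cell growth and survival, mostly had negative values. In miR-17~92 itself 8 of 9 tested members were negative and 2 were called lower (median −0.55), beside 193 negative and 30 called lower of the 305 outside Dlk1-Dio3. The abundant miR-92a-3p had 88124, 57738, 55952 and 75607 CPM in controls and 47255, 38289, 55955 and 47672 CPM in Dnmt-null Exe. Control replicate 3 and Dnmt-null replicate 3 were at the same level, and the log2 fold change was −0.55 (adjusted p = 0.205 by edgeR). The clusters of miR-106b and miR-25 and of miR-106a and miR-363 had 3 of 10 called lower (median −0.60), among them miR-25-3p at −0.72. All 5 tested miRNAs with the seed of miR-92a-3p and miR-25-3p had negative values (median −0.57), and 2 of them were called. With TMM factors computed without Dlk1-Dio3 or with library totals 0 members of miR-17~92 and 2 of the paralogous clusters were called.

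The Sfmbt2 intronic families, with 53 tested members, had a median of −0.09 that became 0.17 with TMM factors computed without Dlk1-Dio3, with 2 called lower and 0 higher. Over all 305 miRNAs tested outside Dlk1-Dio3, 30 (9.84%) were called lower, with a median of −0.21. In the miR-30 family 2 of 11 were called lower (median −0.37). One of them was miR-30c-5p at −0.55 (8428 to 10534 CPM in controls and 5291 to 8029.8 CPM in Dnmt-null Exe). The lists of miR-15, miR-16 and miR-195, of miR-183, miR-96 and miR-182, and of miR-322 and miR-351 had 1 called lower each, of 4, 3 and 7 tested, and 0 higher. None of the tested members of the miR-302 and miR-367 cluster (8), the Gnas and Mest domains (6), the clusters of miR-23, miR-27 and miR-24 (6), the miR-99, miR-100 and miR-125 families (6), the miR-130 and miR-301 family (4), the miR-29, miR-148 and miR-152 families (4) or the miR-181 family (2) was called in edgeR's test. miR-296-3p of the Gnas domain, another miRNA the study names, had a log2 fold change of −0.30 (adjusted p = 0.879 by edgeR). Lists for other cell types had no calls either: 11 blood and endothelial miRNAs (median 0.36), 4 mesenchymal (−0.73) and 3 endodermal (0.19) were tested, the single Hox-cluster miRNA tested was not called, and no neural or miR-34 family member had enough counts. miR-5099, an abundant entry of the table, had a log2 fold change of −0.15 that changed sign under other scalings.

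**Figure D5:**
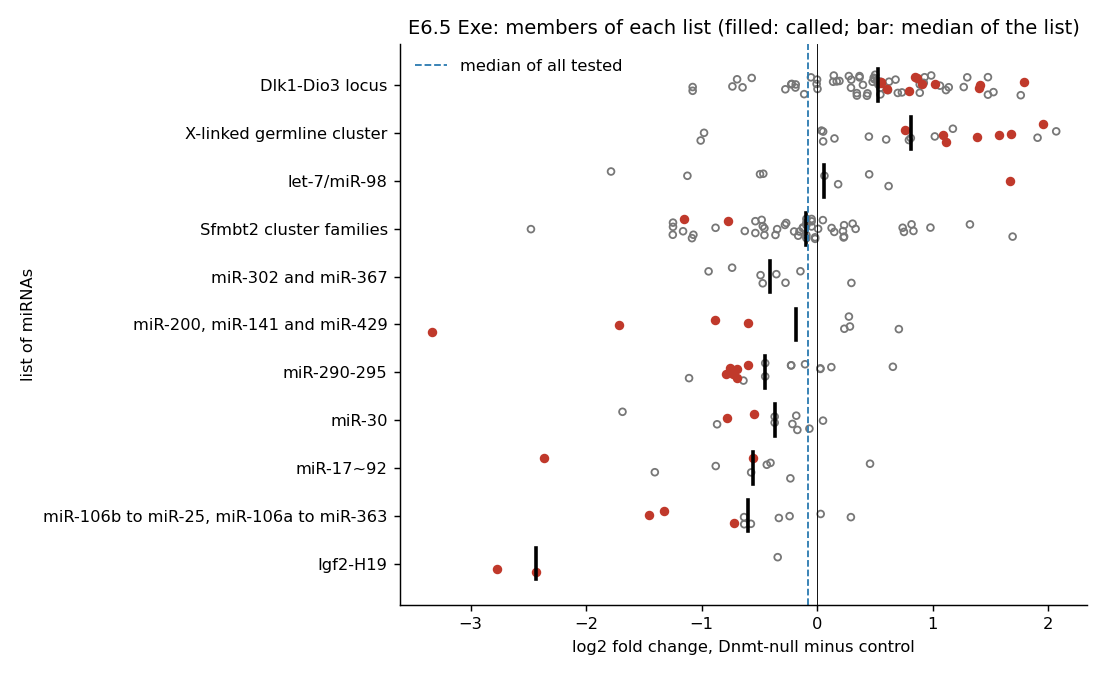
Log2 fold change of Dnmt-null over control for each tested member of selected miRNA lists in E6.5 Exe (filled, called; open, not called; bar, median of the list). The other lists are not drawn. The X-linked cluster has a median of 0.81 with 7 called higher, the 3 tested miRNAs of the Igf2-H19 domain have a median of −2.43 with 2 called lower, and the Sfmbt2 families centre on −0.09.

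In Dlk1-Dio3, the imprinted locus whose maternal allele makes a long run of miRNAs, miR-541-5p had the lowest p-value of all. Controls had 6458, 5308.5, 5651 and 5244 CPM and Dnmt-null libraries 18658, 13452, 15247 and 12389 CPM. The groups were far apart, with a log2 fold change with SE of 1.40 ± 0.24 (adjusted p = 0.00257 by edgeR). The log2 fold change was 0.34 in Dnmt1-KO, which was not called, and 1.02 in Dnmt3a/3b-DKO, and Dnmt-null Exe was higher than Dnmt1-KO by 1.06. miR-540-3p followed the same order, at 1.79 (SE 0.53) in Dnmt-null, 0.27 for Dnmt1-KO and 1.53 for Dnmt3a/3b-DKO Exe, and was higher in Dnmt-null than in Dnmt1-KO Exe by 1.52. miR-494-3p did not, with 1.02 in Dnmt-null, 1.06 for Dnmt1-KO and 0.66 for Dnmt3a/3b-DKO Exe. miR-1193-3p was higher by 0.80 (SE 0.25) in Dnmt-null Exe and was not called in the other genotypes. The locus took 12.04% to 15.6% of counts in controls and 16.8% to 25.3% in Dnmt-null libraries, without overlap. The Dnmt-null effect on miR-541-5p differed between E6.5 and E7.5 Exe, at 1.53 and 0.33, by 1.2005 (SE 0.28, adjusted p = 0.0271 by edgeR), and that on miR-540-3p, at 1.93 and −0.61, by 2.54 (adjusted p = 0.0185 by edgeR), among 0.608% of miRNAs that passed.

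Outside the locus, each edited genotype was set against the same 4 controls, and each comparison gave its own counts. Dnmt-null Exe had 8 miRNAs called higher and 30 lower, Dnmt1-KO Exe 14 and 17, and Dnmt3a/3b-DKO Exe 10 and 21. Directly against Dnmt1-KO, Dnmt-null Exe had 1 miRNA higher and 11 lower outside the locus (2.93% of all 376 lower), and against Dnmt3a/3b-DKO 1 higher and 4 lower.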

How the data were processed

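Small RNA libraries were made by Cas9-assisted small RNA sequencing from 100 pg of RNA. The authors' pipeline used fastp 0.20.1 for trimming and Bowtie 1.2.1.1 for alignment (GRCm38, miRBase 21), and they deposited raw counts per mature miRNA, with 1504 miRNAs in the table. From these counts, edgeR 4.0.16 in R 4.3.3 gave CPM scaled by TMM factors, log2 fold changes and quasi-likelihood tests (filterByExpr with a minimum count of 10), fitted to all 16 E6.5 Exe libraries. Differences from E6.5 Epi and E7.5 Exe came from a fit of 62 libraries with 658 miRNAs. Shares are the percent of each library's deposited counts. Annotation matched 1487 entries to a gene and 1275 to a RefSeq mature sequence. Named miRNAs were those past an adjusted p of 0.05, outside Dlk1-Dio3 up to 12 called per direction by non-overlap and fold and then by smallest p, 4 in the locus by smallest p, the 3 most abundant outside it, 2 that the study names, and examples of lists. The members and lists were chosen with earlier results of these data known. The script was tested on simulated data. In 27 groups of rows the counts were identical, among them copies of a hairpin and entries on both strands of one place, and counting each group once was an alternative chosen after seeing the data. No replicate pair agreed within sampling noise (lowest chi-square per degree of freedom 15.3 over 24 pairs). Other alternatives were RLE factors, TMM factors without the locus, library totals, DESeq2 1.42.0, other count filters, a replicate block, 2 groups alone, and leaving out each library. Deviations of same-numbered control and Dnmt-null libraries correlated at −0.055 to 0.179 across miRNAs, so the numbers were not treated as pairs.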

Additional observations from a re-analysis of the deposited data

Results flagged for a closer look

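Among 56 groups of 4 libraries examined, 4 held a library far from the other 3, where chance flags about 5%. For miR-878-5p, Dnmt-null replicate 1 stood at 709 CPM and the others at 406 to 435 CPM. For miR-421-3p, control replicate 1 stood at 2793 CPM and the others at 793 to 1121 CPM. For miR-15b-5p, Dnmt-null replicate 3 stood at 646 CPM (others 821 to 839) and for miR-295-3p the same library stood at 46309 CPM (others 61129 to 63164).

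The Dnmt-null effect differed between E6.5 Exe and E6.5 Epi for 6 of 658 miRNAs at an adjusted p below 0.05 in edgeR's test (0.912%), and 119 (18.1%) had an unadjusted p below 0.05. The log2 differences were −2.37 for miR-465b-3p and −2.35 each for miR-465a-3p and miR-465c-3p, whose counts were identical or nearly so, so the 3 are close to 1 measurement. For miR-375-3p the difference was −4.13, and it passed in 20 of 31 settings. Its counts were 0, 48, 32 and 34 in E6.5 Exe controls and 3, 20, 10 and 4 in Dnmt-null Exe. In E6.5 Epi they were 13, 4, 7 and 10 in controls and 2, 53, 8 and 34 in Dnmt-null libraries. miR-1983 had a difference of 1.12 and passed in 3 of 31 settings. miR-669p-3p had a fitted difference of 8.52, which is no bound because all 4 E6.5 Epi Dnmt-null libraries were at 0 counts, and it passed in 7 of 31 settings.

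Between E6.5 and E7.5 Exe the effect differed for 4 of 658 (0.608%), and 52 (7.9%) had an unadjusted p below 0.05. The log2 differences were 2.54 for miR-540-3p, 1.2005 for miR-541-5p, 7.95 for miR-615-3p and 4.74 for miR-10b-5p, which passed in 29, 25, 23 and 17 of 31 settings. The miR-615-3p value rests on 1 library: without E6.5 Exe Dnmt-null replicate 2 it was 2.19 (adjusted p = 0.9998 by edgeR). No E6.5 Exe library held more than 5 counts of it, whereas E7.5 controls held 19 to 1160 and E7.5 Dnmt-null libraries 0 to 3. For miR-10b-5p the E7.5 controls held 346 to 6075 counts and the E7.5 Dnmt-null libraries 18 to 304.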

How the results depend on the processing

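miR-483-5p and miR-541-5p kept their direction and their unadjusted call under each of 26 settings, and miR-483-3p was called in each but the adjusted one. The adjusted p passed in 26 for miR-541-5p and in 12 for miR-483-5p. Calls in Dnmt-null Exe numbered 74 with no filter on low counts, 2 after adjustment and 41 to 63 when 1 library was left out. Higher calls outside Dlk1-Dio3 numbered 18 with no filter and 6 to 14 with 1 library left out (14 without control replicate 1). After adjustment they numbered 0 in the main edgeR fit and 6 with DESeq2. In other edgeR fits they numbered 2 with TMM factors without the locus, 2 with the replicate block, 3 with no filter and 3 without Dnmt1-KO replicate 3. Lower calls outside the locus numbered 14 with TMM factors without the locus, 18 with library totals and 20 to 36 with 1 library left out. After adjustment they numbered 1 in the main fit, 0 with RLE factors or library totals and 14 with DESeq2. The adjusted calls in and outside the locus numbered 30 with DESeq2 and 1 to 11 with 1 library left out. Identical rows counted once gave 24 higher and 22 lower calls. The X-linked cluster had 5 to 10 members called higher (10 without control replicate 1, 5 without Dnmt-null replicate 1) and 0 lower in every setting at the unadjusted threshold. After adjustment 0 were called in the main edgeR fit. Over the 26 settings the adjusted p passed in 8 for miR-741-3p, 5 for miR-743b-3p, 3 for miR-470-5p and 2 for miR-465a-5p. It passed in 1 each for miR-878-5p and miR-465c-5p and in 0 for miR-871-3p. The replicate block gave 45 calls and 7 adjusted calls, lost miR-465c-5p, and left 3 differences from Epi. Differences from Epi numbered 11 with RLE factors, 39 with DESeq2, 20 with no filter and 0 to 14 with 1 library left out. Those from E7.5 Exe numbered 1 with TMM factors without the locus, 8 with DESeq2, 9 with no filter and 0 to 6 with 1 library left out. miR-5099 changed sign with TMM factors without the locus (0.097), library totals (0.031) and no filter (0.0060), and its values with 1 library left out ran from −0.48 to 0.19. Those of miR-296-3p ran from −0.54 to 0.31 (without control replicate 4). miR-30c-5p and miR-92a-3p lost their call in 16 of 26 settings and miR-295-3p in 12. Causes were not tested, apart from the larger number of miRNAs tested without a filter. With 65751 to 202093 counts per control library, a count of 0 allows up to 14.8 to 45.6 CPM.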

Other observations

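The arms of the X-linked miR-465 hairpins are given as a ratio chosen after their values were seen, and as a description only. The summed counts of miR-465a-5p, miR-465b-5p and miR-465c-5p divided by those of miR-465a-3p were 0.181, 0.832, 0.802 and 0.333 in controls 1 to 4 and 1.21, 1.30, 0.866 and 1.39 in Dnmt-null libraries 1 to 4. Dnmt1-KO libraries 1 to 4 had ratios of 0.651, 0.449, 0.442 and 1.38. Those of Dnmt3a/3b-DKO libraries were 0.863, 0.769, 0.715 and 0.827. Controls 1 and 4 had the lowest ratios of all 16 libraries.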
